A study of Rattus norvegicus with 244 samples.

Results

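Late injury in the rat raphe was examined by setting 8 raphe samples taken 28 days or 3 months after a moderate spinal cord injury against 3 raphe samples taken at the same times after a laminectomy alone, called sham here. The injured samples are 4 at 28 days and 4 at 3 months. The sham samples are 2 at 28 days and 1 at 3 months. They are 11 of the 84 samples of a study of the raphe and the somatomotor cortex, in which RNA was hybridised to the 3 Affymetrix array types A, B and C, which differ in their probe sets. Each of the 11 samples has an array of every type, 33 of the 244 arrays. A further sham sample at 3 months, replicate 1, was left out because its expression was that of cortex. Naive raphe, from rats with neither operation, has 4 samples, 3 of them with a type C array. All rats of the sham and injured groups had undergone surgery on the spine, and no drug, transgene or genetic change is named. The sources used here give no strain, sex, age or spinal level of the injury. The labels name the tissue as raphe for injured samples and as raphe magno for sham and naive samples, and whether the piece of tissue taken or the injury sets a difference cannot be told apart. They do not say that samples came from separate animals, and p-values measure the spread between these samples, which may be technical.

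The raphe nuclei lie along the midline of the brainstem and hold most of the brain's serotonin neurons. Axons of the caudal raphe, the raphe magnus among them, descend to the spinal cord, where serotonin sets the excitability of motor and pain circuits. A spinal injury cuts or spares these axons at a distance from their cell bodies, so the raphe is a site to look for a response of injured long-tract neurons and of the glia around them. The marker proposed for this window was S100a11, which encodes a small calcium-binding protein of the S100 family.

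Tissue identity and array quality were read first. The mean of 13 probe sets of forebrain cortex genes on types B and C lay between -0.03 and 0.44 log2 units from naive raphe in the 11 samples, against 2.77 to 3.17 in late cortex and 2.67 in the sham sample that was left out. The mean of 5 probe sets of brainstem genes lay between -0.66 and 0.35 in the 11 samples and at -2.97 in the sample left out. The trimmed mean of every array was between 800.5 and 801.3 by the authors' scaling, array medians in the 11 samples ran from 215.1 to 389.4, and the 3'/5' signal ratio of actin, a measure of RNA integrity, ran from 1.24 to 2.66. In bulk tissue, fewer cells of a type and less RNA per cell cannot be told apart.

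Few transcripts separated the injured from the sham raphe at these times. Of 17256 probe sets tested, 3 passed an adjusted p of 0.05 (limma with time as a block, Benjamini-Hochberg adjustment), which is 0.0174%. All 3 were higher after injury. They were 1 probe set of Grin3a, a subunit of the NMDA glutamate receptor, 1 of Pxdn, which encodes the extracellular matrix enzyme peroxidasin, and 1 without a gene symbol. At an unadjusted p under 0.05 there were 1666 probe sets, or 9.65%. Differences are given as log2(intensity + 32), which understates the change of weak signals, and their error is the standard error of the fit. The share of all probe sets whose injured and sham values do not overlap was not counted. Where groups are said not to overlap, this describes the samples and is not a result. The count of 3 depended on single samples. It was 0 without sham 3mo replicate 2, injured 28d replicate 2 or injured 28d replicate 4, 1 without injured 3mo replicate 1, 6 without injured 3mo replicate 3 and 10 without sham 28d replicate 1.

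The sequences upstream of S100a11, Grin3a and Pxdn are shown because these 3 genes carry the results that follow. Each is the 250 bases before the RefSeq start of the gene on the build GRCr8, 5′ to 3′ on the gene's strand, with GC boxes (GGGCGG on either strand, which may overlap) in capitals.
S100a11 (chr2:181874882-181875131, plus strand): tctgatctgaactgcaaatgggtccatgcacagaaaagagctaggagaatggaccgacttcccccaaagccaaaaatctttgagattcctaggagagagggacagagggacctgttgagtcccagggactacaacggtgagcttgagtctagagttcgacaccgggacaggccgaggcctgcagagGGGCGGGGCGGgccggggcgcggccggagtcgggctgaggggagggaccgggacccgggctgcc
Grin3a (chr5:69001559-69001808, minus strand): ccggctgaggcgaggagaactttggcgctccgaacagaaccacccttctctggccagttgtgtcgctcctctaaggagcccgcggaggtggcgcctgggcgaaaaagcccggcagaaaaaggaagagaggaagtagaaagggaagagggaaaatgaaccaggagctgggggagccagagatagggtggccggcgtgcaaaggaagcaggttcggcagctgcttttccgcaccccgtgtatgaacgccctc
Pxdn (chr6:52308124-52308373, plus strand): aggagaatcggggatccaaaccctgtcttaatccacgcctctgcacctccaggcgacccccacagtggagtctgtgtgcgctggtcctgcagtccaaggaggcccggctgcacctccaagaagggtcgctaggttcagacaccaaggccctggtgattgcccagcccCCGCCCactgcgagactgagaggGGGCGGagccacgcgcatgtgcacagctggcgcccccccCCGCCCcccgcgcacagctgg
S100a11 has 2 GC boxes in this window, Pxdn has 3 and Grin3a has 0, and 30.5% of 33469 rat promoters of the same length hold at least 1. Neither the TATA box TATAAA (12.9% of promoters) nor the AP-1 element TGACTCA (4.05%), both searched on both strands, is in any of the 3 windows. A match of letters is not evidence of a bound site, and the arrays measured transcripts only.

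Grin3a encodes GluN3A, an NMDA receptor subunit that binds glycine and lowers the calcium permeability of the receptor. Its deposited intensity in injured raphe was 354.5, 261.3, 280.1 and 189.0 at 28 days and 359.4, 274.5, 336.5 and 178.9 at 3 months. In sham raphe it was 50.03 and 69.28 at 28 days and 63.65 at 3 months. The lowest injured sample lay well above the highest sham sample, and 1 of the 3 sham values did not exceed the upper quartile of the bacterial control probe sets on its array. The difference was 1.70 ± 0.21 log2 units (adjusted p = 0.0280, limma), higher in 8 of 8 injured samples, with 1.71 at 28 days and 1.70 at 3 months. Naive raphe stood at 431.9, 360.4, 521.1 and 323.2, so that naive and injured samples were both high and the 3 sham samples were low. The sham minus naive difference was -2.22 ± 0.25 (adjusted p = 0.00259), and the injured minus naive difference was -0.52 ± 0.19 (adjusted p = 0.164). The same 3 sham samples enter the injured minus sham difference, so the value of sham against naive is not separate evidence. The gene has 2 more tested probe sets, which differed between injured and sham by 0.46 ± 0.25 (adjusted p = 0.593) and -0.18 ± 0.21 (adjusted p = 0.812), so the probe sets of Grin3a disagreed. With any 1 sample left out, the adjusted p ran from 0.00733 to 0.113, and it stayed under 0.05 only without injured 28d replicate 1, injured 3mo replicate 3 or injured 3mo replicate 4. A probe set was tested only where its signal exceeded the 40th percentile of the array on at least 3 arrays, and Grin3a did so on 8 of 8 injured and 0 of 3 sham arrays, so it entered the test through the group where it is high. With no filter, over 26202 probe sets, its adjusted p was 0.0282.

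Pxdn is named here after its values were seen, because the probe set with the stronger signal, which stands for a gene in the rule, is the other of its 2. Peroxidasin cross-links collagen IV in basement membranes. The intensity was 192.1, 257.0, 203.7 and 250.4 in injured raphe at 28 days and 168.1, 152.5, 209.9 and 153.9 at 3 months, against 76.44 and 46.16 in sham at 28 days and 34.11 at 3 months. The groups did not overlap, and 2 of the 3 sham values were at or below the upper quartile of the bacterial controls. The difference was 1.53 ± 0.15 (adjusted p = 0.00760, limma). Naive raphe spanned 74.64 to 223.1, between and within the ranges of the other groups. Its sham minus naive difference was -1.20 (adjusted p = 0.0475) and its injured minus naive difference 0.34 (adjusted p = 0.369). Here too the sham samples are those of the injured minus sham difference, and the value of sham against naive is not separate evidence. The other probe set of Pxdn differed by -0.12 ± 0.27 (adjusted p = 0.923), so this gene's probe sets disagreed too. Without sham 3mo replicate 2 the adjusted p of the higher probe set was 0.0921. This probe set too entered the test through the injured group, exceeding the filter on 3 of 8 injured and 0 of 3 sham arrays. It was not tested without injured 28d replicate 1, 2 or 4, and with no filter its adjusted p was 0.0245.

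The probe set without a symbol, also named after its values were seen, read 577.5, 874.2, 763.6 and 865.5 in injured raphe at 28 days and 765.8, 766.9, 699.0 and 709.3 at 3 months. In sham it read 363.9, 262.6 and 230.9, and in naive raphe 843.5, 1291, 835.8 and 1163. All injured samples were above all sham samples, and naive samples overlapped the upper injured ones or were higher. The injured minus sham difference was 1.34 ± 0.16 (adjusted p = 0.0230, limma). It stayed under 0.05 in 5 of the 11 fits with 1 sample left out, and was lost without sham 28d replicate 2, sham 3mo replicate 2, injured 28d replicates 2, 3 or 4, or injured 3mo replicate 1.

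S100a11 had the largest fitted difference among the 20 genes named for this comparison, and it did not pass the threshold. Its intensity was 492.0, 570.2, 409.0 and 446.8 in injured raphe at 28 days and 379.6, 411.6, 122.3 and 520.3 at 3 months. Sham raphe read 156.9 and 61.81 at 28 days and 36.97 at 3 months. One injured sample at 3 months fell inside the sham range, and the other injured samples lay above it. S100a11 passed the filter on 7 of 8 injured and 0 of 3 sham arrays, and 1 sham value was at or below the bacterial controls, so the size of its difference rests on weak sham signals. The difference was 2.09 ± 0.34 (adjusted p = 0.114, limma), with 1.93 at 28 days and 2.36 at 3 months. It had the same direction in 8 of 8 injured samples against the sham mean of their time, which at 3 months is 1 sample, 36.97. Without the low injured sample, injured 3mo replicate 3, the difference was 2.23 and its adjusted p 0.0141 (limma). Of the 11 fits with 1 sample left out this was the only 1 that passed, and the adjusted p ran up to 0.307. Naive raphe read 300.6, 420.0 and 378.1 on the 3 samples with a type C array. The sham minus naive difference was -2.04 ± 0.41 (adjusted p = 0.0436), while injured differed from naive by 0.10 (adjusted p = 0.902). The 3 sham samples are those of the injured minus sham difference, so the value against naive is not separate evidence. The other S100 and annexin genes did not share this pattern: of 16 list members tested, 7 were higher after injury, with a list median of -0.06, and S100a11 alone passed an unadjusted p under 0.05. Over the 11 samples, with time means removed, the genes most like S100a11 were Zfp330 (r = 0.97), Chic2 (0.91), Vezf1 (0.90), St3gal6 (0.90) and Rbpms2 (0.90). The injured and sham levels enter these values, which are a description over 11 arrays of shared normalization. Their own differences were 0.26 to 0.60, and none passed the threshold.

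**Figure D1:**
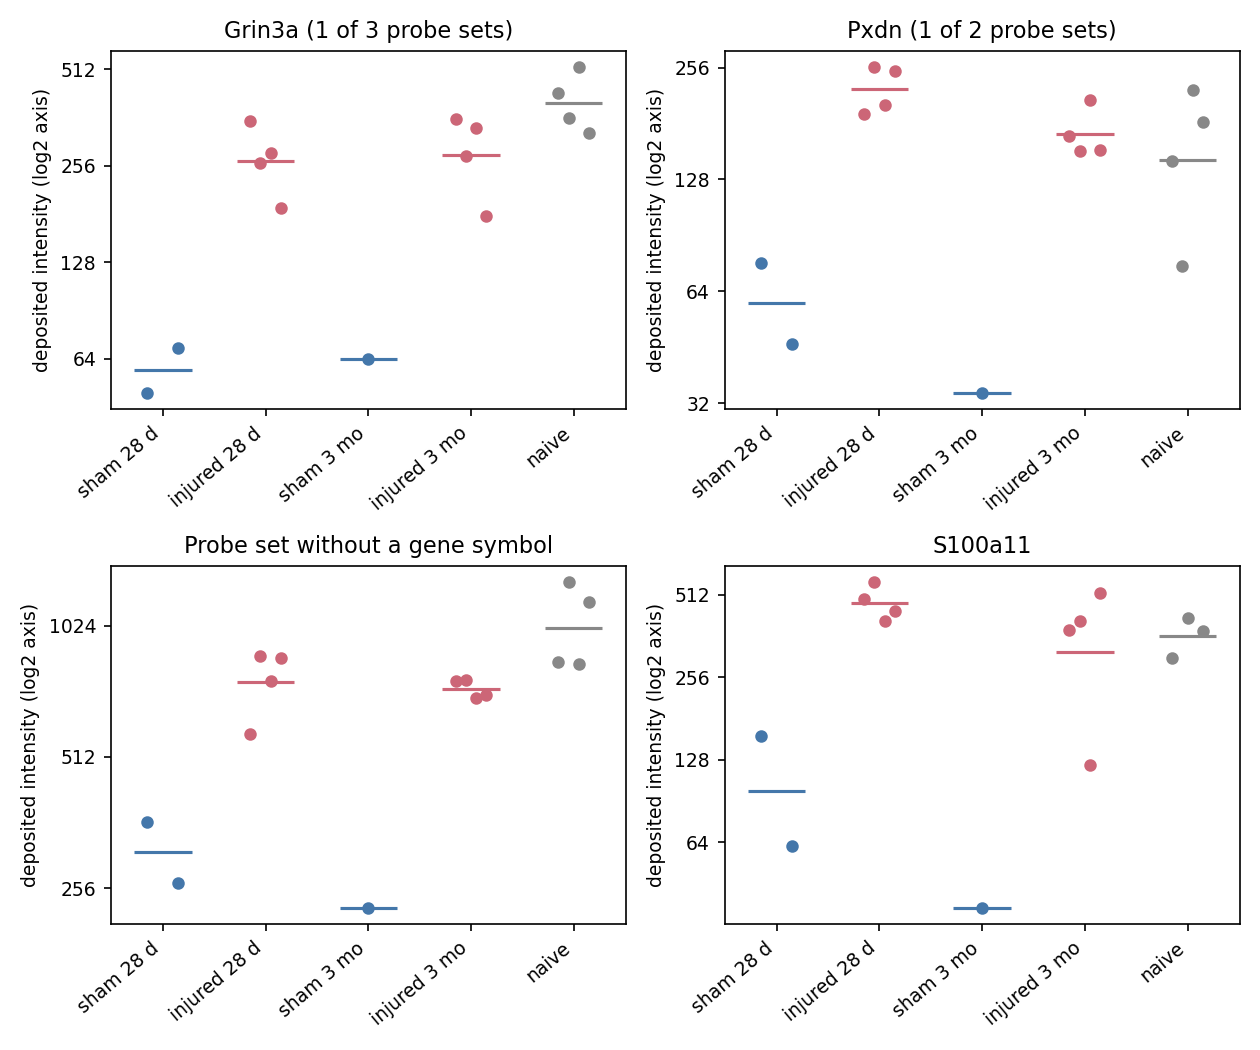
Deposited intensity (log2 axis) of 4 probe sets in each late raphe sample and in naive raphe. Points are samples, bars are geometric means of a group, blue is sham, red is injured and grey is naive. Sham samples lie below the injured ones in all 4 panels, except that S100a11 in 1 injured sample at 3 months, 122.3, is inside the sham range, and 1 naive sample for Pxdn, 74.64, is within the sham range.

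The other genes of smallest p with higher values after injury were 8, and none passed the threshold. Of all 10, 5 passed the filter through injured arrays alone, namely Grin3a, S100a11, Hist4h4, Cldn3 and Eva1b, so for these 5 the direction was bound up with passing it. Hist4h4, a histone H4 gene, came closest, at 1.25 ± 0.17 (adjusted p = 0.0534), with injured samples from 185.4 to 300.5 and sham samples from 54.56 to 107.0. Cldn3, a claudin of tight junctions, read 235.1 to 291.3 in injured raphe at 28 days and 87.66 to 210.2 at 3 months, against 59.42, 92.21 and 48.58 in sham. Cldn3 was the only one of the 10 higher genes with injured raphe above naive past the threshold, by 0.93 (adjusted p = 0.0360). Eva1b differed by 2.02 ± 0.36 (adjusted p = 0.170), with 1 of 3 sham values at or below the bacterial controls and naive samples spread from 57.64 to 588.7. Prx, which encodes periaxin of peripheral myelin sheaths, differed by 0.96 (adjusted p = 0.194). Dhx9, an RNA helicase, differed by 1.09 (adjusted p = 0.180) and Cd151, a tetraspanin that binds laminin-receptor integrins, by 0.83 (adjusted p = 0.201). Xylt2, a xylosyltransferase that starts glycosaminoglycan chains, differed by 1.17, and Heatr5a by 1.25 (adjusted p = 0.205 for both).

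Among the 10 genes of smallest p with lower values after injury, the differences ran from -1.33 to -0.58 and none passed. Ccl2, a chemokine that attracts monocytes, read 97.47, 65.79, 66.96 and 71.63 in injured raphe at 28 days and 110.0, 97.48, 77.79 and 101.4 at 3 months. In sham it read 161.0, 152.6 and 205.6, above every injured sample, and in naive raphe 60.48 to 153.7. The difference was -0.85 ± 0.14 (adjusted p = 0.114, limma), lower in 8 of 8 injured samples. It passed the filter on 3 of 3 sham and 0 of 8 injured arrays, thus only through the group where it is high, and was not tested when any sham sample was left out. Agpat1, an acyltransferase of phospholipid synthesis, read 5180 to 5301 in the 3 sham samples and 2793 to 4792 in the injured ones (-0.58, adjusted p = 0.283). Phlda3, a p53 target that restrains Akt, read 1325 to 1539 in sham and 771.7 to 1070 in injured raphe (-0.62, adjusted p = 0.245). Necab3, a neuronal calcium-binding protein, differed by -0.65 (adjusted p = 0.322). Actn2, a muscle-type alpha-actinin also found at synapses, read 204.8 to 291.8 in sham and 31.28 to 179.3 in injured raphe, with 3 injured values at or below the bacterial controls. The other 5 were Rrp1, Prrc2a, Swap70, Ubqln4 and Aspscr1, with adjusted p-values from 0.245 to 0.321.

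Naive raphe gave a further reference level for these genes. The comparisons with naive share samples with the comparison of injured and sham, so the values are set side by side and no agreement is counted. For the 10 higher genes the sham minus naive difference ran from -2.22 to -0.30 and the injured minus naive difference from -0.52 to 0.93. For the 10 lower genes the sham minus naive difference ran from 0.24 to 1.85 and the injured minus naive difference from -0.94 to 0.45. With naive samples in place of sham, the difference of Grin3a was -0.52, of Prx -0.34, of Xylt2 -0.22, of Necab3 0.11 and of the probe set without a symbol -0.43, each with its sign turned. Across all 17775 probe sets tested, 434 (2.44%) separated late injured from naive raphe, 293 higher (1.65%) and 141 lower (0.793%). Late sham differed from naive at 194 (1.09%), 84 higher (0.473%) and 110 lower (0.619%). Single samples moved these counts. Without naive replicate 4 they were 146 and 48, and without sham 28d replicate 2 the count for sham was 8. Naive rats had no operation and no time after one, so surgery and time differ together there, for injured samples with the tissue name too, and cannot be told apart.

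Selp and Lsamp were among the genes that set both operated groups apart from naive raphe. Selp, the P-selectin of activated endothelium and platelets, read 163.5 to 417.6 in injured raphe and 205.4, 392.2 and 290.1 in sham. In naive raphe Selp read 34.81 to 54.40, near the upper quartiles of the bacterial controls on those arrays, 33.12 to 47.69. It was 1.92 higher than naive after injury (adjusted p = 0.00184, limma) and 2.02 higher in sham (adjusted p = 0.00506), and injured and sham differed by -0.16. Lsamp, a cell adhesion protein of limbic neurons, was below naive in both, with differences of -1.38 for injured (adjusted p = 0.00629) and -1.76 for sham raphe (adjusted p = 0.0108).

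**Figure D2:**
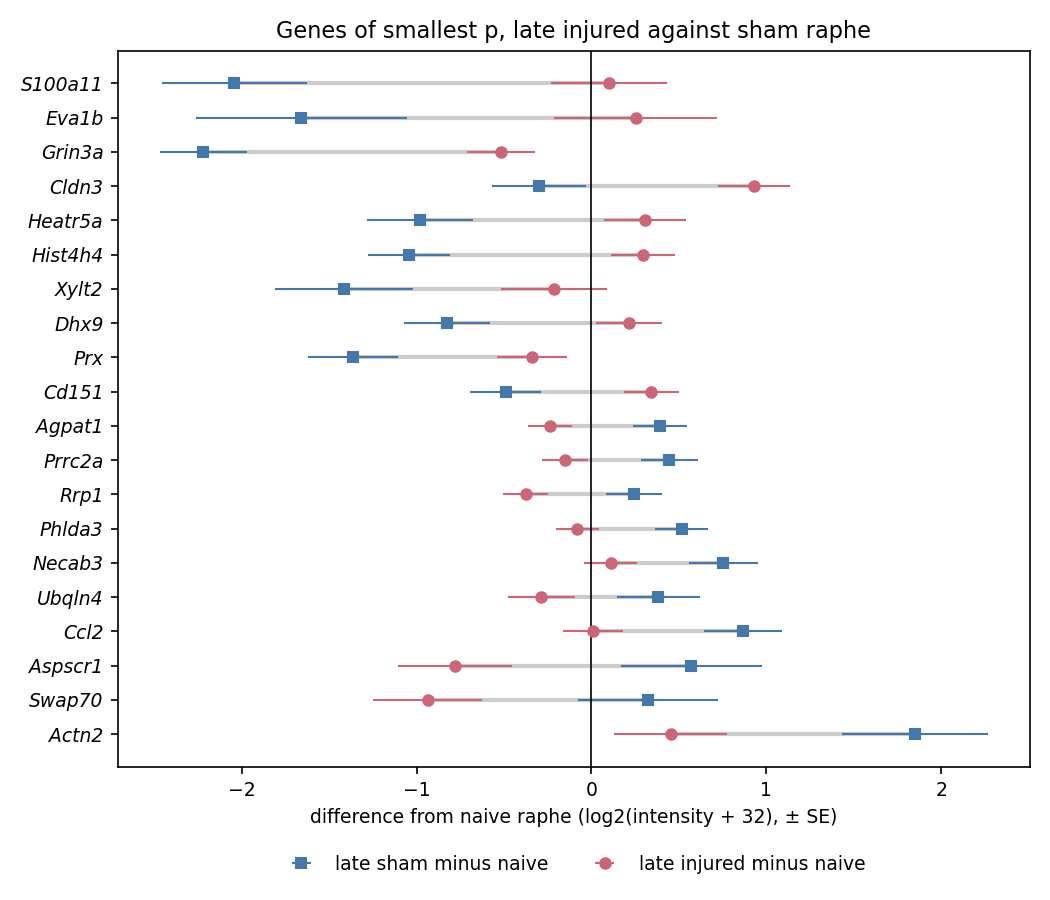
Difference from naive raphe, log2(intensity + 32) with its standard error, for the 20 genes of smallest p between late injured and sham raphe. Blue squares are late sham and red circles late injured samples. For Grin3a the sham value is -2.22 and the injured value -0.52, and for Cldn3 they are -0.30 and 0.93.

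Gene lists describe the tissue beyond single probe sets. Of 8765 genes tested, 48.96% were higher in injured raphe and the median difference was -0.01. Of 37 lists, 1 had a member past the threshold, Grin3a among the glutamate receptors and transporters, of which 8 of 26 were higher. The lists with the highest medians were blood cells (0.64), meninges and fibroblasts (0.50) and glucocorticoid-responsive genes (0.38). The lowest was the list of serotonin and monoamine genes (-0.42). No member of these 4 lists passed the threshold.

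**Figure D3:**
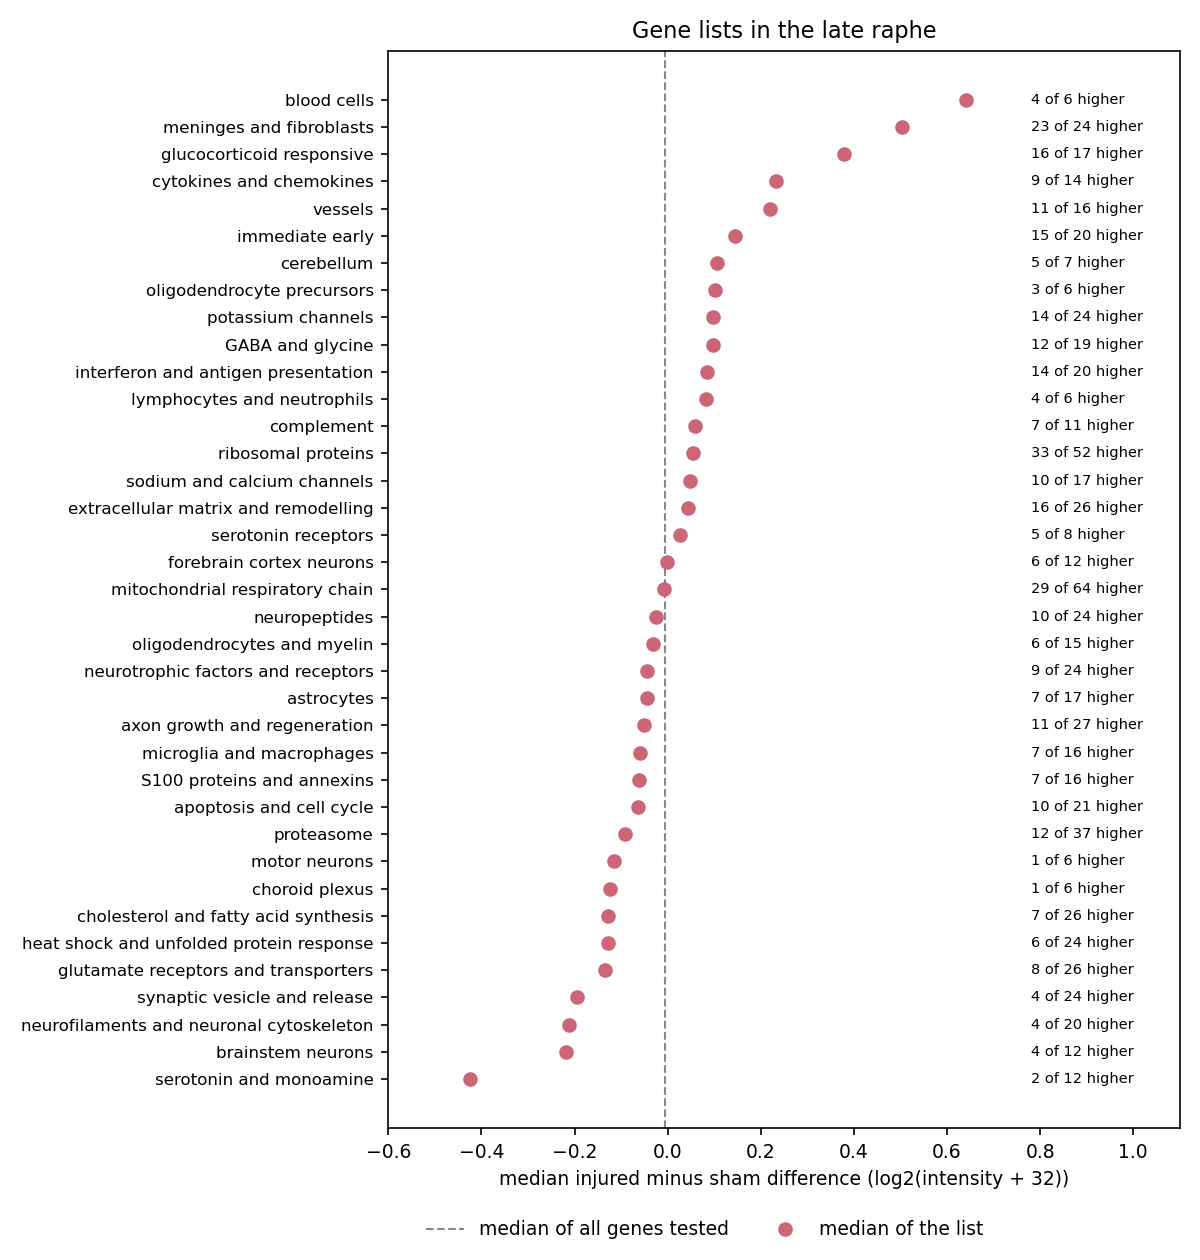
Median injured minus sham difference, log2(intensity + 32), of each of 37 gene lists in the late raphe, with the number of tested members that were higher. The dashed line is the median of all genes tested, -0.01. Blood cell, meningeal and glucocorticoid-responsive genes are at the upper end and serotonin and monoamine genes at the lower end.

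Serotonin and monoamine genes, which make, store and take up the transmitters of raphe and neighbouring neurons, were lower after injury in 10 of 12 members. Th, tyrosine hydroxylase of catecholamine synthesis, read 1027, 1078, 1004 and 1439 at 28 days and 973.5, 1155, 1263 and 970.6 at 3 months in injured raphe. In sham it read 1267, 2127 and 2124, so that 1 sham sample lay within the injured range (-0.69 ± 0.19, adjusted p = 0.332). Ddc, the decarboxylase that makes serotonin and dopamine, read 660.8 to 972.4 after injury and 971.7, 1077 and 1536 in sham (-0.56 ± 0.16, adjusted p = 0.351). Slc6a2, the noradrenaline transporter, read 100.9 and 82.56 in injured 3mo replicates 1 and 4 and 373.5 to 706.6 in the other injured samples. In sham it read 721.4, 1404 and 1027, without overlap (-1.30 ± 0.56, adjusted p = 0.499, limma), and in naive raphe 838.9, 662.8 and 529.6. The serotonin transporter Slc6a4 differed by -0.22 and Fev, the transcription factor of serotonin neurons, by -0.01. The 2 higher members were Gata2 (0.28) and Maob, the monoamine oxidase of glia and serotonin neurons (0.68 ± 0.24, adjusted p = 0.418). Against naive raphe the list median was -0.05 for injured and 0.41 for sham samples. The median kept its sign when each sample was left out and ran from -0.50 to -0.24 over all alternatives other than naive, the latter without sham 28d replicate 2. The serotonin receptors had a median of 0.03, with 5 of 8 higher.

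Genes that glucocorticoid hormones induce were higher after injury in 16 of 17 members. Klf9, a zinc-finger factor that corticosterone induces in brain, read 2494, 1868, 2132 and 2192 at 28 days and 1777, 2074, 1854 and 2077 at 3 months in injured raphe, all above the 1609, 1581 and 1265 of sham. Its difference was 0.50 ± 0.13 (adjusted p = 0.326), and injured exceeded naive by 0.75 (adjusted p = 0.0231, limma). Ddit4, an inhibitor of mTOR signalling, read 642.4 to 1853 in injured raphe at 28 days and 425.5 to 711.3 at 3 months, against 598.4, 593.2 and 463.9 in sham. The difference of the list was mainly in the 28-day samples, where its mean level was 9.71 to 9.98 in injured and 9.21 and 9.31 in sham raphe. At 3 months it was 9.22 to 9.56 in injured and 9.35 in sham raphe, and these overlapped. The list median was 0.43 at 28 days and 0.10 at 3 months, and at an unadjusted p under 0.05 there were 8 higher and 0 lower members at 28 days, and 2 higher and 1 lower at 3 months. Over all probe sets, both directions together, 11.8% had such a p at 28 days and 9.78% at 3 months, so the count of 3 in 17 at 3 months is near the background. None of these passed the adjustment, and the difference between times was not tested for the list. Of the 16 members with a RefSeq promoter, 1 (6.25%) holds the glucocorticoid half-site AGAACA on either strand in the 250 bases before its start, against 18.5% of all 27457 genes with a promoter.

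Genes of the meninges and fibroblasts were higher after injury in 23 of 24 members. Slc6a13, a GABA transporter of the leptomeninges, read 386.8, 513.9, 335.3 and 114.8 at 28 days and 127.1, 388.4, 167.1 and 181.3 at 3 months in injured raphe. Sham raphe read 125.4, 97.56 and 61.01, overlapping the lowest injured samples (1.26 ± 0.37, adjusted p = 0.353). Islr, a secreted protein of mesenchymal cells, read 427.8 to 1001 after injury and 337.0 to 417.0 in sham (0.73, adjusted p = 0.405). Cdh11, a mesenchymal cadherin, differed by 0.71 and Mgp, matrix Gla protein of vessel walls, by 0.85. The list's mean level was 8.63 to 9.91 in injured, 8.47 to 8.78 in sham and 8.83 to 9.34 in naive raphe, so it varied from sample to sample in every group. At 28 days 22 of 24 members were higher (median 0.90), and at 3 months 16 of 24 (median 0.17), a difference between times that was not tested for the list. At 7 and 14 days 18 of 24 members were higher (median 0.31). The late list median was 0.30 without injured 28d replicate 2 and 0.91 without sham 3mo replicate 2. Those samples also had the highest signals of Ttr, the transthyretin of the choroid plexus, at 45390 and 28940, against 260.4 to 11590 in the other 9. How much of the list's difference goes with tissue carried along at dissection was not tested.

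Of 6 blood cell genes tested, 4 were higher after injury (median 0.64). The mean level of the list was highest among operated rats in injured 28d replicate 2 and injured 3mo replicate 2, as for the meningeal genes. Hbb, a beta globin, read 12760 to 20600 after injury and 8106 to 11100 in sham, groups that did not overlap, and 20070 to 23130 in naive raphe. Its injured minus sham difference was 0.72 ± 0.18 (adjusted p = 0.312), and its sham minus naive difference was -1.27 (adjusted p = 0.0152, limma). Hba-a1, an alpha globin, was at -1.55 in sham against naive (adjusted p = 0.00170) and at -0.83 in injured against naive (adjusted p = 0.00849). Alas2, the haem synthesis enzyme of red cells, was at -1.17 in sham against naive (adjusted p = 0.0239). The sham samples here are those of the injured minus sham differences. On the mean, these 3 transcripts were highest in naive raphe, lower in injured and lowest in sham raphe. Closely related globin genes share sequence, and their probe sets may not separate them. Without sham 3mo replicate 2 the median of the blood cell list was 0.42. The blood cell list had a mean level of 9.95 to 10.13 in sham and 10.13 to 10.95 in injured raphe. Vessel genes were higher in 11 of 16 members (median 0.22).

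**Figure D4:**
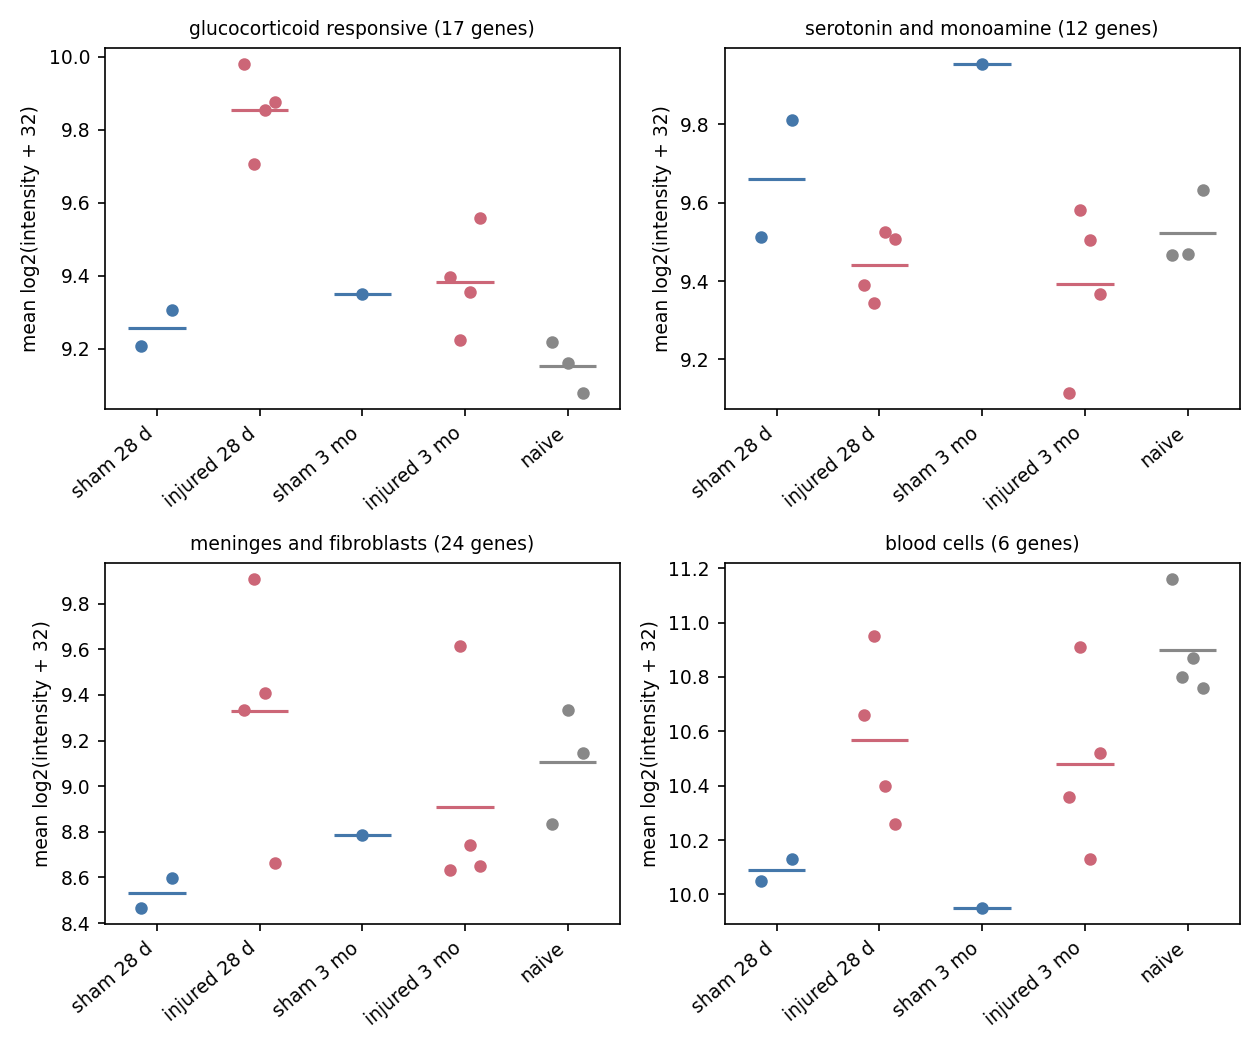
Mean log2(intensity + 32) over the tested members of 4 gene lists in each late raphe sample and in naive raphe. Points are samples and bars are group means, with sham in blue, injured in red and naive in grey. Glucocorticoid-responsive genes are at 9.71 to 9.98 in injured raphe at 28 days and overlap sham at 3 months.

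Neuronal structure genes were slightly lower after injury. Of 20 neurofilament and cytoskeleton genes 4 were higher (median -0.21). The list's mean level was 12.91 to 13.16 in injured and 13.19 to 13.21 in sham raphe, without overlap. The mean level of cholesterol and fatty acid synthesis genes (median -0.13) was also lower after injury without overlap. No other list had such a gap, so the gap was not particular to neuronal genes. Mapt, the microtubule protein tau, differed by -0.38 and Nefl, the light neurofilament, by -0.33. Of 24 synaptic vesicle and release genes 4 were higher (median -0.19). Sv2a, a vesicle glycoprotein, read 6940 to 12400 after injury and 13360 to 13950 in sham (-0.54 ± 0.16, adjusted p = 0.348). No member of these lists passed the threshold. Glial lists were near the median of all genes: astrocytes at -0.04 (7 of 17 higher), microglia and macrophages at -0.06 (7 of 16) and oligodendrocytes and myelin at -0.03 (6 of 15). Genes of axon growth and regeneration had a median of -0.05, with 11 of 27 higher. Without sham 3mo replicate 2 the medians were -0.24 for microglia and macrophages and -0.14 for axon growth.

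Taken singly, the 2 times differed in what they could show. Their effects came from a joint fit with naive raphe, so the filter and the spread draw on all these groups. At 28 days, with 4 injured and 2 sham samples, 0 of 17775 probe sets (0%) passed (limma), and 2105 had an unadjusted p under 0.05. At 3 months, with 1 sham sample whose spread is taken from the other groups, 27 probe sets (0.152%) passed, 24 higher and 3 lower. Those with a symbol included C3, the central complement component (1.74), Cd74, the invariant chain of antigen presentation (2.95), Bad, a promoter of apoptosis (2.17), and Spout1 (-1.74), named after their values were seen. They were not those of smallest p. At 3 months 5 of 11 complement genes were higher (median -0.004), against 48.3% of all probe sets. So were 12 of 20 interferon and antigen presentation genes (median 0.06) and 10 of 21 apoptosis and cell cycle genes (median -0.04). All of these differences rest on the single sham sample. The difference between the 2 times passed for 2 probe sets (0.0113%). One was Cyp2j3, an epoxygenase of arachidonic acid. It read 267.9 to 372.3 in injured and 342.9 and 508.5 in sham raphe at 28 days. At 3 months it read at least 339.1 in injured and 59.66 in sham raphe, the latter below the upper quartile of the bacterial controls on its array, 66.36. The low value is that of 1 sham sample, and the difference between times was 2.52 ± 0.32 (adjusted p = 0.0217, limma). The other, without a symbol, read 156.6 in the same sham sample and 749.5 to 1333 in the other 10 (2.47 ± 0.28, adjusted p = 0.0121).

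The late effect was then set against that at 7 and 14 days, from 8 injured and 4 sham raphe samples. At those earlier times 760 of 18182 probe sets (4.18%) separated injured from sham raphe in a fit of both windows together. The late effect in that same fit passed for 16 (0.088%), of which 1, the probe set of Pxdn, was among the 3 of the late samples' own fit. The late window had 1 sham sample fewer. The difference between windows passed for 2 probe sets (0.011%), both with a late effect below the earlier one. Aamp, an angiogenesis-associated protein, differed by -2.82 ± 0.42 between windows (adjusted p = 0.0265, limma). Its effect was 1.22 ± 0.28 at the earlier times (adjusted p = 0.0205) and of the opposite sign late, -1.60 ± 0.32 (adjusted p = 0.205), with 56.66 to 234.0 in late injured and 336.1 to 493.6 in late sham raphe. The other probe set of Aamp differed by -0.04 (adjusted p = 0.956), so its probe sets disagreed. Stxbp6, a syntaxin-binding protein, differed by -0.92 ± 0.15 (adjusted p = 0.0284), from 0.74 at the earlier times to -0.17 late, and its other probe set by -0.07. S100a11 was already higher at the earlier times, by 1.62 (adjusted p = 0.00719), and the higher probe set of Pxdn by 1.44 (adjusted p = 0.00215). Grin3a was not, at 0.02 (adjusted p = 0.983), and its difference between windows was 1.68 ± 0.51 (adjusted p = 0.315).

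In the somatomotor cortex at the same times 8 injured and 3 sham samples were used. Sham 3mo replicate 1 of the cortex was left out, since its forebrain genes lay only 1.19 above naive raphe and its brainstem genes at -0.42, where the other late cortex samples were at 2.77 to 3.17 and -3.40 to -2.45. None of 18485 probe sets (0%) had an injury effect that differed from that in the raphe (limma), and 859 had an unadjusted p under 0.05. Of the members described above, Grin3a differed between injured and sham cortex by 1.28, S100a11 by 0.81 and the higher probe set of Pxdn by 0.47, none past the threshold. Hist4h4 was at -0.25 in cortex. Spp1, osteopontin, had the smallest p for the difference between regions, at 0.47 in raphe and -0.72 in cortex (adjusted p = 0.450 for the difference).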

How the data were processed

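The intensity values, 1 per probe set on a linear scale, are the authors' deposited signals, scaled by them to a common trimmed mean on each array. No software name is given in the sources used here. To each value 32 was added before taking log2. Of 26202 probe sets without controls, 18178 had 1 gene symbol in the platform annotation, 391 several and 7633 none. A probe set was tested if its value exceeded its array's 40th percentile on at least 3 arrays of the fit. Each array type had its own limma fits (version 3.58.1, R 4.3.3), and p-values were adjusted over the 3 types together by Benjamini-Hochberg. The late effect and the comparisons with earlier times and with cortex had time as a block. The effects at each time, their difference and the comparisons with naive came from a joint fit of group means. It held injured and sham raphe of both times and naive raphe, with a shared spread and no block. All tests were two-sided. The late fit was tested on simulated data, with independent normal noise and changes added only to probe sets of stronger signal. Changes in signals as weak as those of Grin3a and S100a11 were not covered. The number of arrays limits the precision.

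The probe set of highest mean signal stood for a gene. Named genes were the 10 of smallest p in each direction (10 up to 15 where more passed), S100a11, up to 4 members of a list with the smallest p, and the 5 of smallest p in each other comparison. The samples, the 37 lists and the tests were chosen with earlier results of these data known. Alternatives were a smaller and a larger constant, quantile normalization, other filters, array weights, a replicate block, other weightings of the samples, naive in place of sham and each sample left out.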

Additional observations from a re-analysis of the deposited data

Results flagged for a closer look

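Among the 20 genes named for late injury, 53 groups of 4 samples were examined for a sample far from the other 3, and 4 had one. Chance flags about 1 in 20 such groups. Xylt2 read 138.2 in naive replicate 3 and 475.9 to 533.6 in the other naive samples. Swap70 read 258.1 in injured 3mo replicate 2 and 155.6 to 166.1 in the others. Actn2 read 31.28 in injured 28d replicate 1 against 97.45 to 115.3, and 179.3 in injured 3mo replicate 4 against 45.83 to 48.86.

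Injury effects that differed between times past the threshold (limma) were those of Cyp2j3, larger at 3 months than at 28 days by 2.52, and of a probe set without a symbol, by 2.47. Both rest on the 1 sham sample at 3 months, where Cyp2j3 was below the upper quartile of the bacterial controls. The late effect lay below the earlier one by -2.82 for Aamp, which was higher after injury at the earlier times (1.22) and at -1.60 late, and by -0.92 for Stxbp6. In the late fit Aamp passed the filter through the sham group alone.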

How the results depend on the processing

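The number of arrays, 3 sham samples above all, and signals near the bacterial controls limit every result. Of 483 refits of the 20 named genes and the 2 other probe sets past the threshold, 441 kept direction and side of the threshold, 25 lost it, 12 passed and 5 turned, all 5 with naive in place of sham: Grin3a at -0.52, Prx at -0.34, Xylt2 at -0.22, the probe set without a symbol at -0.43 and Necab3 at 0.11. The cause of the changes below was not tested.

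The late count of 3 became 5 with 1 as the constant, 9 without a filter, 1 with the 60th-percentile filter, 6 with equal weights of the times, 6 with raphe sham 3mo replicate 1 added, 16 in the fit of both windows (chosen after seeing the data) and 96 with naive in place of sham. The 28-day count of 0 became 5 with 1 as the constant, 4 with the 60th-percentile filter and 116 with array weights. The 3-month count of 27 became 8 with the larger constant and 15 with the stricter filter. The count of 2 for the difference between times became 1 with the larger constant, 4 after quantile normalization, 5 without a filter, 4 with the stricter filter and 23 with array weights. Injured against naive gave 202 without a filter and 702 with the stricter one, and sham against naive 50 and 342. The count of 2 for late minus earlier became 1 with the larger constant, after quantile normalization and with the stricter filter, and 0 without a filter and with array weights. The raphe minus cortex count stayed at 0 in all settings.

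The labels do not tie samples of the same replicate number. The pairing was checked at 28 days alone, where 2 numbers are shared and the deviations of the 2 sham samples mirror each other, and deviations of same-numbered samples correlated between -0.13 and 0.03. With the replicate block the late count was 3, of which 1 was shared, the 3-month count 3, the counts against naive 159 for injured and 7 for sham, and the difference between times and late minus earlier 0.

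With 1 sample left out, counts ran from 0 to 10 (late), 0 to 35 (28 days), 7 to 34 (3 months), 0 to 4 (difference between times), 146 to 572 (injured against naive), 8 to 237 (sham against naive) and 0 to 6 (late minus earlier). The naive samples left out were chosen after seeing the data. The 3-month effect and the sham comparison with naive have no value without the 1 sham sample at 3 months.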

Other observations

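Several further transcripts differed between late injured and sham raphe without passing the adjustment, and gaps between their groups have no background share beside them. Nr4a1, an immediate early nuclear receptor, read 469.0 to 841.4 in injured and 212.6, 431.9 and 365.7 in sham raphe (0.90 ± 0.21, adjusted p = 0.288, limma), and Egr4 differed by 0.35. Of 20 immediate early genes 15 were higher (median 0.14). The median was -0.02 without sham 3mo replicate 2, so its sign rests on that sample. It was -0.02 at 28 days, with 10 of 20 higher, and 0.39 at 3 months, with 16 of 20 higher. Cntf, ciliary neurotrophic factor of glia, read 223.3 to 301.7 after injury, 211.8, 107.2 and 154.7 in sham and 292.3 to 324.3 in naive raphe. The same sham values were below naive (-0.87, adjusted p = 0.0451, limma). Crh, corticotropin-releasing hormone, read 167.9 to 335.9 after injury and 124.2 to 161.9 in sham (0.57, adjusted p = 0.383).

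Ptn, pleiotrophin, a growth factor for neurites, read 1136, 1466, 1241 and 2235 in injured and 545.4 and 299.2 in sham raphe at 28 days (1.78), and 654.2 to 1120 in injured and 1019 in sham raphe at 3 months (-0.15). Itgb1, the beta-1 integrin, showed 2454 to 2758 against 1002 and 1174 at 28 days, and 1581 to 2588 against 2396 at 3 months. The tests of the difference between times did not pass for either gene.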
